A study of Mus musculus with 10 samples.

Results

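The nuclear-encoded genes of the mitochondrial respiratory chain were described in veins that drain arteriovenous fistulas in mice given antibody or vehicle. They were taken by name from the gene table: protein-coding rows outside the mitochondrial chromosome whose names begin with Nduf followed by a subunit letter and number, Sdha to Sdhd, Uqcr, Cox4 to Cox8 with a plain isoform ending, or Atp5. This gave 82 of 43346 genes: 38 of complex I, 4 of complex II, 8 of complex III, 15 of complex IV and 17 of complex V. Of these, 80 passed the filter on low reads and were tested. The other two, Cox7b2 and Cox8c, had at most 5 and 2 reads in any library. The name rule has known limits: Ndufa4 is now counted as a complex IV subunit, Ndufa4l2, Atp5s and Atp5sl are not established subunits of the complex their names give, and Cox4i1 and Cox4i2 lie outside it.

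An arteriovenous fistula joins an artery to a vein to give access for haemodialysis, and the outflow vein thickens under arterial flow. All mice of both groups carried a knock-in of human CX3CR1, with the strain given as C57, and all had chronic kidney disease for 28 days before a fistula was made between carotid artery and jugular vein. The antibody group received 30 mg/kg of antibody by intraperitoneal injection, given 2 times per week, and the vehicle group received vehicle on the same schedule, and veins were taken at day 7 in both. The treatment label names an antibody to human CX3CR1 and the series title one to fractalkine, its ligand, so the labels do not settle the target. No group lacked the knock-in, the kidney disease or the fistula. Each group had 5 libraries, which the labels do not tie to separate animals, so p-values measure the spread between libraries.

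The respiratory chain makes most of the ATP of a resting cell. Complexes I and II take electrons from NADH and succinate, complex III passes them to cytochrome c, complex IV hands them to oxygen, and complex V, the ATP synthase, uses the proton gradient that results. Complexes I, III, IV and V also hold subunits encoded in mitochondrial DNA, whereas complex II is wholly nuclear. Several complex IV subunits come in pairs, a form found in most tissues and a form enriched in heart and skeletal muscle (Cox6a2, Cox7a1, Cox8b); in rodents Cox7a1 and Cox8b are also abundant in brown fat.

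The libraries held between 4282872 and 34271554 reads, recovered from the deposited RPKM (reads per kilobase of gene, scaled by the depth of the library). With 3 reads taken as the least that counts as detected, the floor ran from 0.0875 CPM (reads scaled by library total) at the greatest depth to 0.700 CPM at the least, for counting error only. All 37 mitochondrially encoded genes in the table were listed at 0 in every library, so the mitochondrial share of the chain could not be set beside the nuclear share. Smooth muscle markers (6 genes, summed 284 to 610 RPKM, and 233 to 478 RPKM without Des, which all muscle types express) and endothelial markers (139 to 180 RPKM) were present in each library. Skeletal muscle markers were also present and set 3 libraries apart: antibody 5, vehicle 4 and vehicle 5 held 5530, 10375 and 6572 RPKM summed over the 17 markers, against 542 to 1446 RPKM in the other 7 libraries. The medians, most named differences of the chain and the other pathway lists are therefore also given without those 3 libraries, on 4 antibody and 3 vehicle libraries. In bulk tissue, fewer cells of a type and less RNA per cell cannot be told apart.

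Most respiratory chain genes lay lower in the antibody veins, none by more than the test could separate from the spread between libraries. Of the 80 tested, 70 had a fitted difference below 0 and 10 above, with a median of -0.14 on the log2(RPKM + 0.5) scale, beside 51.2% below 0 and a median of -0.01 over all 17859 genes. No gene passed limma at an adjusted p of 0.05, among the 80 or in the whole table (0%), and the smallest adjusted p of a respiratory chain gene was 0.739. At an unadjusted limma p under 0.05, 1 gene of the chain was lower (Ndufs7), where 2.98% of all genes were lower, 3.55% were higher and 6.53% differed in either direction. The groups of 5 overlapped for each of the 80, whereas 1.11% of all genes had groups apart. The difference was of similar size in each complex: the median was -0.14 in complex I (32 of 38 lower), -0.08 in complex II (4 of 4), -0.16 in complex III (8 of 8), -0.10 in complex IV (12 of 13) and -0.14 in complex V (14 of 17).

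The difference between the groups lay mainly in the highest vehicle libraries. Summed over the 82 genes, antibody libraries 1 to 5 held 2197, 1900, 2435, 2332 and 2481 RPKM, and vehicle libraries 1 to 5 held 1955, 1963, 2393, 3198 and 3370 RPKM. Vehicle 4 and vehicle 5 thus stood above all others, while vehicle 1 and vehicle 2 were close to antibody 2, the lowest. Vehicle 5 was the highest library for 43 of the 80 genes and vehicle 4 for 29, together 90%, against 18.9% of all tested genes. Both stood above the other 8 libraries in 54 of the 80 (67.5%), against 2.93% of all tested genes. The coefficient of variation was larger among vehicle than antibody libraries for 75 of the 80 genes, against 54.7% of all tested genes. At the low end, antibody 2 was lowest for 25 genes, vehicle 2 for 22 and vehicle 1 for 17. Before scaling, the sums ran from 1963 to 2538 RPKM in antibody and from 2014 to 3254 RPKM in vehicle libraries. Vehicle 4 (3254 RPKM) and vehicle 5 (2835 RPKM) were again highest but in the reverse order, so their order depended on the scaling.

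**Figure D1:**
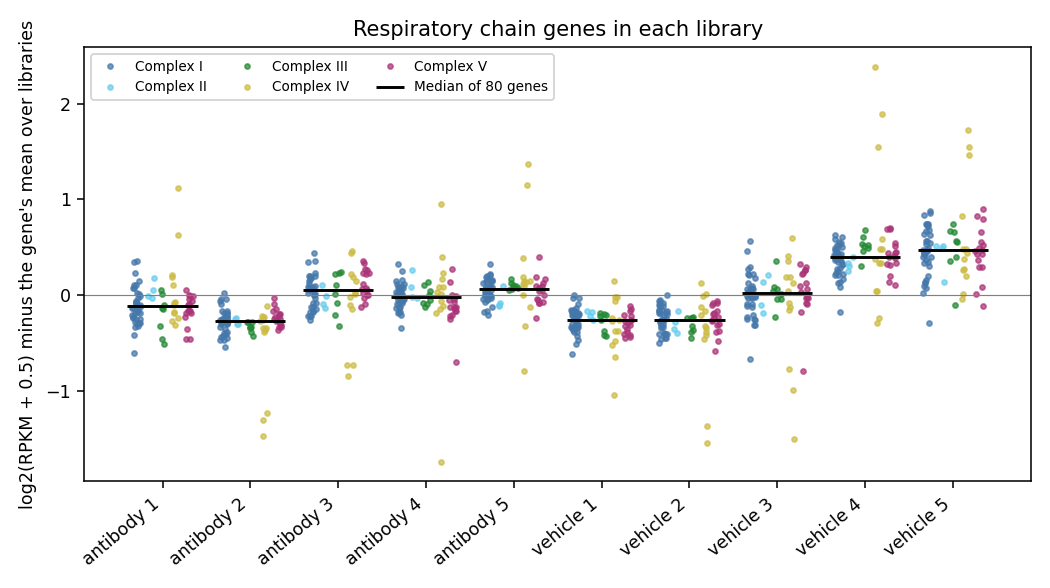
Each point is 1 of the 80 tested genes in 1 library, as log2(RPKM + 0.5) minus that gene's mean over the 10 libraries; colours give the complex and black bars the median of the 80. Points of all complexes sit high in vehicle 4 and vehicle 5, and the bars of vehicle 1, vehicle 2 and antibody 2 are the lowest.

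Vehicle 4 and vehicle 5 are also the libraries with the most skeletal muscle RNA. Ckm, the muscle creatine kinase, stood at 115, 81.4, 89.7, 38.0 and 373 RPKM in antibody libraries 1 to 5 and at 60.8, 60.8, 60.0, 764 and 473 RPKM in vehicle libraries 1 to 5. Antibody 5 was high in Ckm but its respiratory chain sum was only slightly above that of antibody 3. Over the whole list, 16 of 17 skeletal muscle markers were lower with antibody (median -0.78, none called by limma). Without the 3 muscle-high libraries 11 were lower and 6 higher (median -0.18). Myh1 was also highest in those 3. It stood at 92.3, 110 and 65.3 RPKM in vehicle 1 to 3, against 30.0 to 43.8 RPKM in antibody 1 to 4. The other 7 libraries were thus not alike between the groups in Myh1. Myh2 in vehicle 2 (18.2 RPKM) was above antibody 5 (14.6 RPKM). Myh7 in vehicle 1 (0.519 RPKM) was above vehicle 4 (0.25 RPKM). Myh6, which defines heart muscle, was near 0 in each library, at 0.03 to 0.26 RPKM. Of the heart troponins, Tnni3 stood at 0.863 to 2.22 RPKM and Tnnt2 at 0.345 to 9.55 RPKM, with Tnnt2 highest in antibody 5 (9.55) and vehicle 4 (7.18). Without the 3 libraries, 22 of the 80 genes lay below 0 and 58 above, and the smallest adjusted limma p was 0.731. The median was 0.07, beside 0.005 over all genes. Each complex then had a median above 0, from 0.06 in complex III to 0.13 in complex II. The libraries left out were chosen after the data were seen. Vehicle 4 and vehicle 5 stood above the other 8 libraries in 54 of the 80 genes, so leaving them out raises most differences whatever the cause. With the mean level of the muscle markers as a covariate and all 10 libraries kept, 49 lay below 0 and the median was -0.03. The part of skeletal muscle in the difference was not tested.

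Other markers moved in partly different libraries. Ucp1, the uncoupling protein that defines brown fat, reached 51.2 RPKM in antibody 1 and 21.8 in antibody 4, and was between 0.11 and 3.88 RPKM in the other 8 libraries. Cidea, also high in brown fat, followed it, at 21.1 and 22.2 RPKM in the same libraries. Dio2, of the same list, was highest in antibody 5 (4.15 RPKM), with 3.43 in antibody 4, 3.21 in vehicle 4 and 2.78 in antibody 1. Ppargc1a stood at 1.68 RPKM in antibody 4, 1.64 in antibody 5, 1.47 in antibody 1, 1.41 in vehicle 4 and 1.40 in vehicle 5. Neither antibody 1 nor antibody 4 was high for the respiratory chain. Without these libraries 71 of the 80 genes lay below 0 with a median of -0.14. Kap, a kidney tubule gene, reached 49.5 RPKM in antibody 4, 46.6 in vehicle 5, 27 in vehicle 1 and 17.2 in antibody 2, with 0 in antibody 1. Without these 4 libraries 56 of the 80 genes lay below 0 and the median was -0.06. They were ranked by Kap alone, 1 of 8 kidney tubule markers. Slc12a1 was also high in vehicle 5 (1.84 RPKM) and antibody 4 (1.11 RPKM). Aqp2 was instead lowest in vehicle 5 (1.97 RPKM) and highest in antibody 3 (4.74 RPKM). By the mean log2 level of the list, antibody 3 (1.12) ranked above antibody 2 (1.05). The part of brown fat or kidney RNA in the respiratory chain values was not tested.

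**Figure D2:**
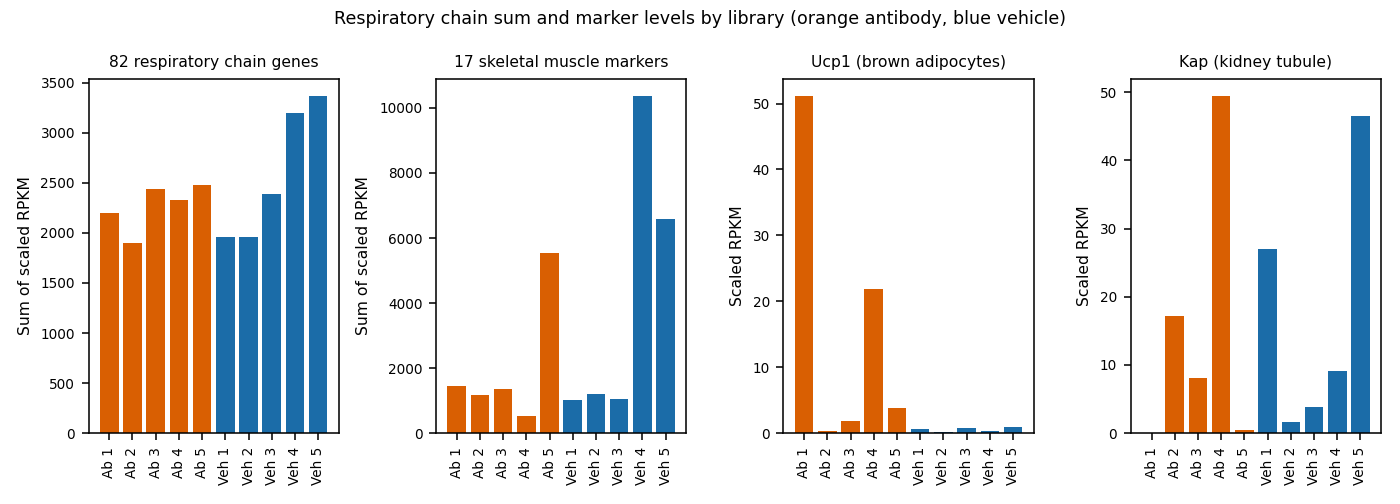
Bars give, for each library (orange antibody, blue vehicle), the summed RPKM of the 82 respiratory chain genes, the summed RPKM of 17 skeletal muscle markers, and the RPKM of Ucp1 and Kap, each axis from 0. The chain sum and the muscle sum are both highest in vehicle 4 and vehicle 5; Ucp1 is highest in antibody 1 and antibody 4, and Kap in antibody 4 and vehicle 5.

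**Figure D3:**
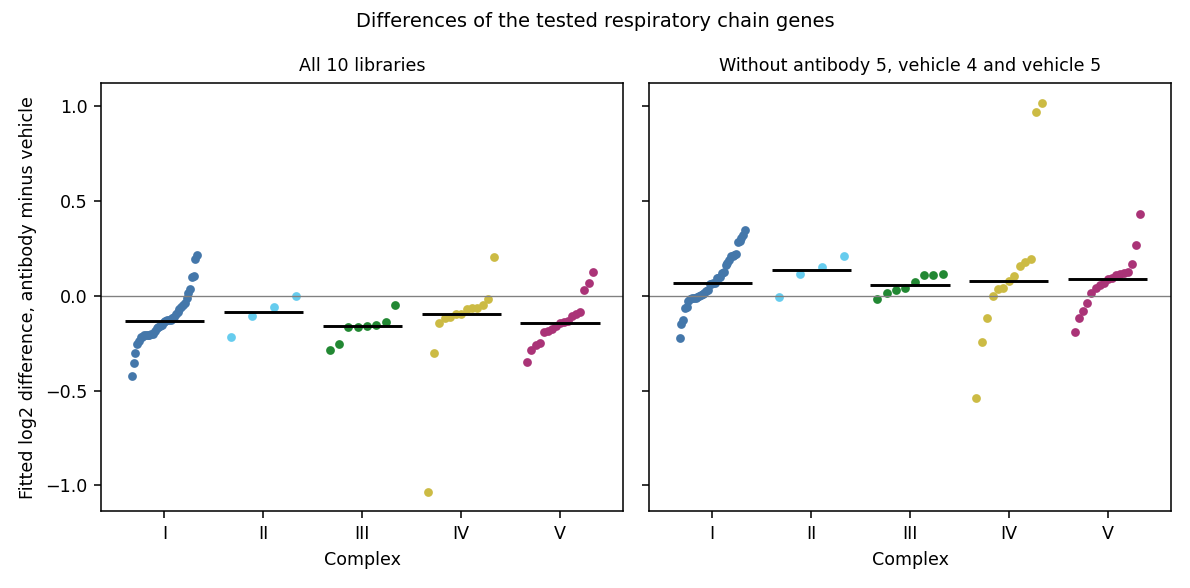
Fitted log2 differences, antibody minus vehicle, of the 80 tested genes by complex, with black bars at the complex medians; the left panel has all 10 libraries and the right panel lacks antibody 5, vehicle 4 and vehicle 5. The medians lie below 0 on the left, -0.08 to -0.16, and above 0 on the right, 0.06 to 0.13.

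Complex I, the NADH dehydrogenase, gave the gene of smallest p. Ndufs7, which carries an iron-sulfur cluster at the end of the electron path, stood at 14.4, 12.7, 14.7, 17 and 18.3 RPKM with antibody and at 15.7, 15.5, 20.8, 24.8 and 30.1 RPKM with vehicle. The groups overlapped through vehicle 1 and vehicle 2, and vehicle 5 was the highest. The means were 15.4 ± 2.21 and 21.4 ± 6.23 RPKM (SD, n = 5; here and in later pairs of means antibody is given first), a log2 difference of -0.42 (SE 0.19) with an unadjusted limma p of 0.0461, an adjusted p of 0.739 and an exact two-sided permutation p of 0.0794. Without the 3 muscle-high libraries it was -0.22 (adjusted limma p 0.788). The gene is at chr10:80249121-80256794, and its promoter window (chr10:80249199-80249498, plus strand, GRCm38.p6, RefSeq) is shown because this gene gave the smallest p of the chain. The window lies inside the gene's table interval, because the RefSeq start is downstream of the start in the table. Capitals mark TATAAA and the letters AAGATGGCG bound by YY1, a factor of mitochondrial gene control, which 7 genes of the chain held.
Ndufs7: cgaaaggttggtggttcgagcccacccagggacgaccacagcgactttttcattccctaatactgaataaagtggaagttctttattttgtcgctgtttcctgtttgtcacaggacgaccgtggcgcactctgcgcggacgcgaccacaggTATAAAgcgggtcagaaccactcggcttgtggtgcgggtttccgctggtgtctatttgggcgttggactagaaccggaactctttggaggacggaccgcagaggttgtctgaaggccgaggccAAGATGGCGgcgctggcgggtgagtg

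The next complex I genes by p also lay lower with antibody. Ndufa6, an accessory subunit, stood at 55.4, 56.1, 73.9, 65.2 and 69.7 RPKM with antibody and at 61.0, 69.0, 78.4, 75.6 and 96.3 RPKM with vehicle. Antibody 1 and antibody 2 were below each vehicle library and the other 3 within the vehicle range, and the log2 difference was -0.24 (SE 0.14, adjusted limma p 0.758). Ndufa13, an accessory subunit also known as GRIM-19, had means of 41.1 ± 6.15 and 52.0 ± 14.4 RPKM (-0.30, adjusted limma p 0.771), and its table interval lies within that of Yjefn3, on the same strand. Ndufb8, a membrane arm subunit, had means of 9.83 ± 0.898 and 11.7 ± 2.58 RPKM (-0.22, adjusted limma p 0.771) and shares 4260 bp on its strand with Gm20538, a gene at 34.9 RPKM, so reads of these neighbours may have been split by the counting. With the 3 muscle-high libraries left out, Ndufa6 was at -0.15, Ndufa13 at -0.13 and Ndufb8 at -0.03 (adjusted limma p 0.845, 0.886 and 0.967).

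The most abundant complex I gene was Ndufb9, an accessory subunit, at a mean of 79.4 RPKM over the 10 libraries. It stood at 61.9, 51.8, 67.0, 76.0 and 83.0 RPKM with antibody and at 61.2, 61.6, 77.7, 118 and 136 RPKM with vehicle. Vehicle 4 and vehicle 5 alone stood above antibody 5, and the log2 difference was -0.36 (SE 0.24, adjusted limma p 0.771), and -0.06 without the 3 muscle-high libraries. The least abundant by RPKM was Ndufb2, at 2.69 RPKM, which shares 4022 bp with Adck2 on its strand. Its deposited length was 5628 bp and its reads ran from 71 to 626 per library. Ndufb4, with 1170 bp and 3.25 RPKM, had only 14 to 182 reads. Ranks of level between genes thus depend on the deposited gene lengths.

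Ndufa4 and Ndufa4l2 lay higher with antibody. Ndufa4, which sits in complex IV, stood at 42.4, 31.6, 39.98, 38.0 and 41.7 RPKM with antibody and at 31.1, 30.4, 29.0, 53.3 and 29.2 RPKM with vehicle. Each antibody library was above 4 of the 5 vehicle libraries, and vehicle 4 alone was above them all. The log2 difference was 0.20 (SE 0.17, adjusted limma p 0.803). Without the 3 muscle-high libraries it was 0.32 with an unadjusted limma p of 0.0363 and an adjusted p of 0.731. In that setting 1 of the 80 genes had an unadjusted limma p under 0.05, beside 6.73% of all genes. Ndufa4l2, a hypoxia-induced relative of Ndufa4, made up 11.8% to 29.7% of the summed RPKM of the pair, with means of 8.81 ± 1.27 and 7.83 ± 2.86 RPKM (0.21, adjusted limma p 0.818), and 0.34 without the 3 libraries.

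Complex II, succinate dehydrogenase, is the complex that also works in the citric acid cycle. Sdha, its flavoprotein and most abundant member, stood at 42.8, 36.1, 40.5, 51.9 and 46.0 RPKM with antibody and at 38.1, 38.4, 37.9, 57.1 and 47.3 RPKM with vehicle. The groups covered nearly the same range, and the log2 difference was -0.002 (SE 0.14), with 95% limits of 0.803 and 1.24-fold. Sdhc, a membrane anchor, had means of 11.5 ± 0.739 and 13.7 ± 3.38 RPKM (-0.22, adjusted limma p 0.777). Sdhb, the iron-sulfur subunit, had means of 20.7 ± 2.21 and 22.7 ± 5.62 RPKM (-0.11, adjusted limma p 0.883). For Sdhd, the other anchor, the means were 26.3 ± 3.31 and 28.0 ± 7.42 RPKM (-0.06, adjusted limma p 0.938). In all 4 the spread was wider with vehicle. In the 7 muscle-low libraries Sdhd was at 0.21, Sdha at 0.15, Sdhb at 0.11 and Sdhc at -0.0065 (adjusted limma p 0.795, 0.837, 0.883 and 0.993).

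In complex III, the cytochrome bc1 complex, the gene of smallest p was Uqcrfs1, the Rieske iron-sulfur protein. It stood at 25.4, 20.9, 22.5, 30.3 and 29.8 RPKM with antibody and at 21.7, 22.5, 29.4, 45.5 and 45.2 RPKM with vehicle. The 3 lower vehicle libraries lay within the antibody range and vehicle 4 and vehicle 5 far above it, which gave -0.29 (SE 0.23, adjusted limma p 0.792). Uqcr11, a small subunit and the most abundant of the complex at 51.6 RPKM, had means of 46.1 ± 7.65 and 57.2 ± 20.2 RPKM (-0.25, adjusted limma p 0.808). The core subunit Uqcrc2 had means of 19.5 ± 2.48 and 22.6 ± 6.74 RPKM (-0.17, adjusted limma p 0.844). Uqcrh, the hinge protein, had means of 47.3 ± 7.68 and 54.4 ± 16.4 RPKM (-0.16, adjusted limma p 0.852). The least abundant was the other core subunit, Uqcrc1, at 20.3 RPKM, so levels within the complex spanned less than in complexes I, IV and V. In the 7 muscle-low libraries the direction turned for the 4 genes with a difference given here, to 0.014 for Uqcrfs1, 0.030 for Uqcr11, 0.074 for Uqcrc2 and 0.11 for Uqcrh (adjusted limma p 0.988, 0.977, 0.924 and 0.890).

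**Figure D4:**
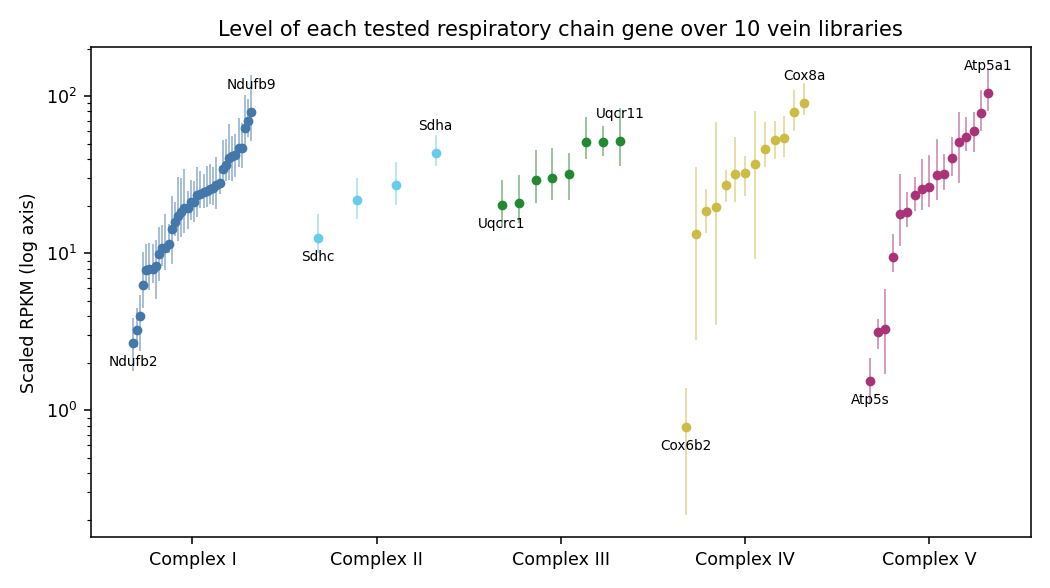
Mean RPKM of each tested gene over the 10 libraries (points, log axis) with its lowest and highest library (lines), sorted within each complex. RPKM divide by the deposited gene length, on which ranks between genes depend. Complex III spans 20.3 to 51.6 RPKM, whereas complex IV runs from 0.783 RPKM (Cox6b2) to 90.4 RPKM (Cox8a) and complex V from 1.54 RPKM (Atp5s) to 104 RPKM (Atp5a1).

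Complex IV, cytochrome c oxidase, held the 3 most variable genes of the chain, the muscle forms Cox6a2, Cox7a1 and Cox8b, with an SD over libraries of 1.35, 1.27 and 1.27 on the log2 scale, against a median of 0.30 for the 80 genes. Cox6a2 (chr7:128205436-128206366) stood at 10.7, 5.17, 7.48, 3.47 and 33.7 RPKM with antibody and at 9.01, 14.0, 6.18, 68.8 and 38.5 RPKM with vehicle. Its 3 highest libraries were the 3 muscle-high ones and the other 7 did not exceed 14.0 RPKM. The log2 difference of -1.03 (SE 0.72, adjusted limma p 0.775, exact permutation p 0.214) was the largest of the chain, with 95% limits of 0.161 and 1.48-fold, and it was -0.54 without the 3 libraries. Itgad, on the other strand, covers all 931 bp of the gene but stood at only 0.235 RPKM.

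Cox7a1 and Cox8b were high in the muscle-high libraries and in the libraries high in Ucp1. Cox7a1 stood at 20.5, 3.42, 4.91, 12.3 and 12.2 RPKM with antibody and at 4.21, 2.81, 5.16, 35.5 and 31.5 RPKM with vehicle (-0.10, SE 0.75, adjusted limma p 0.982). Cox8b stood at 41.9, 9.39, 16.0, 52.6 and 60.6 RPKM with antibody and at 17.1, 10.1, 9.17, 80.1 and 75.3 RPKM with vehicle (0.21, SE 0.74, adjusted limma p 0.953). For both genes the 5 libraries high in muscle or Ucp1 were above the other 5; the muscle-high ones come from both groups and the Ucp1-high ones from the antibody group. Without the 3 muscle-high libraries the log2 differences were 0.97 and 1.02 (adjusted limma p 0.765 and 0.764), and without all 5 that of Cox7a1 was 0.04.

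As shares of each pair, the muscle forms ranged widely. Cox6a2 made up 16.1%, 11.6%, 11.0%, 5.93% and 44.8% of the RPKM of Cox6a1 and Cox6a2 in antibody libraries 1 to 5, and 15%, 21.3%, 8.19%, 61.9% and 39.2% in vehicle libraries 1 to 5. Antibody 4, high in Ucp1, had the lowest Cox6a2 share of all. Cox7a1 made up 46.4% of its pair in antibody 1 and 30.1% in antibody 4, against 29.6% in antibody 5, 51.0% in vehicle 4 and 49.4% in vehicle 5, and 11.7% to 16.9% in the 5 libraries low in both kinds of marker. For Cox8b the same 5 held 8.61% to 16.3%, and the others 33.4% to 51.4%. The widespread partners varied less: Cox6a1 ran from 39.6 to 69.3 RPKM, Cox7a2 from 21.3 to 34.1 RPKM and Cox8a from 75.7 to 121 RPKM. The libraries fell into separate clusters of muscle marker level, so no relation was computed over all 10. Within the 7 muscle-low libraries, Pearson's r to the mean muscle marker level was 0.70 for Cox6a2 (exact permutation p 0.0806, 0.242 adjusted over the 6 genes; Spearman's rho 0.50, exact p 0.267), and it was -0.24 without antibody 1 and antibody 4, so it rests on those libraries. The largest value of the other genes was that of Cox8a, -0.71 (exact permutation p 0.0190, 0.114 adjusted), and none of the 6 passed after adjustment.

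**Figure D5:**
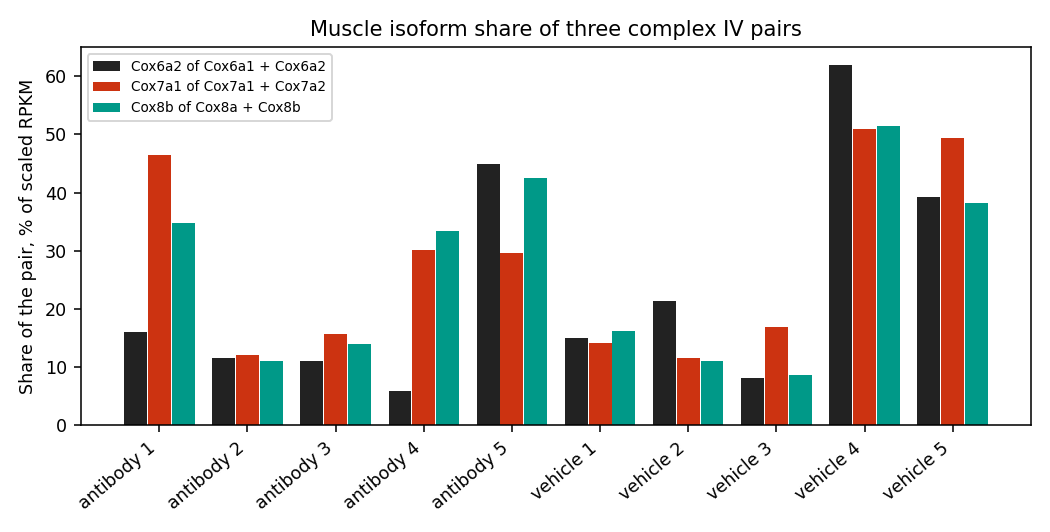
Bars give, per library, the share of the muscle form in the summed RPKM of its pair, in %, for Cox6a2, Cox7a1 and Cox8b. All are high in antibody 5, vehicle 4 and vehicle 5, and Cox7a1 and Cox8b but not Cox6a2 are also high in antibody 1 and antibody 4.

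The promoters of the pairs are shown because the members of a pair differ in these libraries and in their upstream letters. Windows run from 250 bases before to 50 after the RefSeq start (GRCm38.p6), and capitals mark matches on either strand to the NRF1 palindrome with 1 free base, GABP (CCGGAAG), YY1 (AAGATGGCG), Sp1 (GGGCGG), the estrogen-related receptor (TCAAGGTCA), CREB (TGACGTCA), the MEF2 core with 4 free bases or the TATA box (TATAAA). The windows are chr5:115348909-115349208 (minus) for Cox6a1, chr9:79759804-79760103 (minus) for Cox7a2, chr7:30183921-30184220 (plus) for Cox7a1, chr19:7217567-7217866 (minus) for Cox8a and chr7:140900397-140900696 (minus) for Cox8b.
Cox6a1: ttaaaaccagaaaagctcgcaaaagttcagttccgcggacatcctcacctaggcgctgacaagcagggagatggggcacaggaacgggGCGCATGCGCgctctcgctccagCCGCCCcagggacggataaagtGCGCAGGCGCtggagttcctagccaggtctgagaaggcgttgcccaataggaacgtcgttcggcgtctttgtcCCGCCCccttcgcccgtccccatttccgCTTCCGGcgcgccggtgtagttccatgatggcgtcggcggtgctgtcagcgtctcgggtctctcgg
Cox7a2: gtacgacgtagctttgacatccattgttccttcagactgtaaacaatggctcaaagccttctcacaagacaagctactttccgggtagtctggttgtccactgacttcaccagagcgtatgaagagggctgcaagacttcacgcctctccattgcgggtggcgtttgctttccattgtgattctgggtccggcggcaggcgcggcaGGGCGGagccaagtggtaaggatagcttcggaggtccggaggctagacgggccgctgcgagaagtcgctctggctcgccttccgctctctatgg
Cox7a1: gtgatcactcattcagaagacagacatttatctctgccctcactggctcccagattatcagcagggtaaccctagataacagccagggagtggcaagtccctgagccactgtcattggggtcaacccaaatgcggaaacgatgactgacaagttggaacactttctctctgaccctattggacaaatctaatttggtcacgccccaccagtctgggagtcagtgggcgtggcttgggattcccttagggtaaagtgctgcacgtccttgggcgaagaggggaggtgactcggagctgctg
Cox8a: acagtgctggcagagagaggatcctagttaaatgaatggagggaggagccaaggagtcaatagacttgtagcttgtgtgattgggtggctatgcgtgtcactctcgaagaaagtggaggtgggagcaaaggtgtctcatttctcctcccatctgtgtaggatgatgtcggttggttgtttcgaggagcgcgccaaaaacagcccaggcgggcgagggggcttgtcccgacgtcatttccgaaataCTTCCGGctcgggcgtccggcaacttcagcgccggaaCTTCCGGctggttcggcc
Cox8b: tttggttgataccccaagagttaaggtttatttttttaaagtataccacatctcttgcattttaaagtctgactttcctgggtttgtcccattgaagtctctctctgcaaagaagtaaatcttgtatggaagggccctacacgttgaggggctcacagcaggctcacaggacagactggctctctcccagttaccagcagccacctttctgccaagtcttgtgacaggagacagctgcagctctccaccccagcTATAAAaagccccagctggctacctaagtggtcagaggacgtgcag

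Cox6a1 held NRF1, GABP and Sp1 letters, Cox7a2 an Sp1 match and Cox8a the reverse complement of the GABP letters at 2 places, whereas Cox8b held TATAAA and Cox7a1 none of the 8 motifs. Over the 69 genes of the chain with a RefSeq window, the NRF1 letters were found in 16 (23.2%), against 4.8% of 27025 promoters of all genes and 6.6% of 17491 of protein-coding genes. GABP letters were in 15 (21.7%, against 9.1% and 11.9%) and YY1 letters in 7 (10.1%, against 1.5% and 1.9%). Sp1 letters were in 28 (40.6%, against 35.9% and 46.3%), close to the background. CREB letters were in 4 (5.8%, against 1.9% and 2.3%) and those of the estrogen-related receptor in 2 (2.9%, against 0.4% and 0.3%). TATAAA was in 7 (10.1%, against 14.2%) and the MEF2 letters only in Cox5b (1.4%, against 3.7%). Matches of different motifs overlapped in 1 of the 69 windows. These are matches of letters, not measured binding. Genes for which no window was used include Cox8c, Sdhc, Cox6a2, Cox6c, Ndufa4l2, Uqcrq, Atp5a1, Uqcrc2, Ndufb9 and Uqcrb.

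The other complex IV genes were not called either. Cox6a1, the widespread partner of Cox6a2, had means of 50.6 ± 9.40 and 54.8 ± 10.1 RPKM (-0.12, adjusted limma p 0.869). Cox7c, a small structural subunit, had means of 17.6 ± 2.19 and 19.5 ± 4.94 RPKM (-0.12, adjusted limma p 0.878). Cox6b2, a testis form of Cox6b1, was the least abundant tested gene, at 0.676, 0.476, 1.21, 0.751 and 0.216 RPKM with antibody and 0.877, 0.756, 1.38, 0.776 and 0.705 RPKM with vehicle (-0.30, adjusted limma p 0.779). Antibody 5 was its lowest library and vehicle 3 its highest. Its difference depended on the model, at -0.64 with limma-voom and -0.49 with an added constant of 0.1, and it was -0.14 without antibody 5. In the 7 muscle-low libraries Cox6a1 was at -0.12, Cox7c at 0.035 and Cox6b2 at -0.24 (adjusted limma p 0.902, 0.969 and 0.833). The widespread Cox6b1 stood at 77.1 ± 11.6 and 82.8 ± 24.8 RPKM, and Cox7b at 45.2 ± 5.03 and 46.8 ± 13.0 RPKM, while Cox7b2 did not exceed 0.471 RPKM in any library.

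In complex V, the ATP synthase, the gene of smallest p was Atp5d, the delta subunit of the central stalk. It stood at 29.4, 25.3, 32.3, 27.3 and 30.9 RPKM with antibody and at 27.1, 29.4, 37.1, 40.04 and 42.8 RPKM with vehicle. Vehicle 3, vehicle 4 and vehicle 5 were above each antibody library, and the log2 difference was -0.26 (SE 0.14, unadjusted limma p 0.0867, adjusted p 0.741). Atp5l, subunit g of the membrane part, had means of 36.8 ± 5.59 and 43.9 ± 7.42 RPKM (-0.25, adjusted limma p 0.753). Atp5a1, the alpha subunit of the catalytic head, was the most abundant gene of the whole chain, at 97.9 ± 9.48 and 111 ± 30.9 RPKM (-0.14, adjusted limma p 0.861). Atp5e, the epsilon subunit, was among the 5 most variable genes of the chain, with an SD of 0.45 and means of 15.5 ± 2.86 and 20.0 ± 8.10 RPKM (-0.29, adjusted limma p 0.804). With the 3 muscle-high libraries left out, Atp5d was at -0.12, Atp5l at -0.19, Atp5a1 at 0.11 and Atp5e at 0.038 (adjusted limma p 0.870, 0.817, 0.881 and 0.977).

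Atp5g1, Atp5g2 and Atp5g3 encode the same mature c subunit, the proton-carrying ring, behind different import sequences. Atp5g3 supplied 59.9% to 71.6% of their summed RPKM, Atp5g2 19.9% to 29.2% and Atp5g1 5.27% to 11.6%, and this order held in each library. RPKM divide reads by the deposited gene length, 4912 bp for Atp5g1, 1675 bp for Atp5g2 and 2181 bp for Atp5g3. The order of Atp5g1 and Atp5g2 depends on those lengths: their reads per library ran from 90 to 814 and from 82 to 692. Atp5g1 had the largest difference of these genes, with means of 2.80 ± 0.957 and 3.82 ± 1.61 RPKM (-0.35, SE 0.28, adjusted limma p 0.793). Atp5g2 had means of 8.82 ± 1.36 and 10.2 ± 2.26 RPKM (-0.19, adjusted limma p 0.794), and Atp5g3 of 23.1 ± 2.93 and 27.9 ± 10.8 RPKM (-0.19, adjusted limma p 0.849). The values in the 7 muscle-low libraries were -0.08 for Atp5g1, 0.058 for Atp5g2 and 0.12 for Atp5g3. By group, Atp5g3 held 66.5% ± 4.51 with antibody and 65.8% ± 3.27 with vehicle. Atp5s and Atp5sl, which are not synthase subunits, and Atp5k were the genes of this name group above 0, at 0.07, 0.13 and 0.03.

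Other genes of the pathway gave no calls either: 0 genes passed limma in each list. The 8 listed genes outside the name rule, which include cytochrome c itself (Cycs), were all lower (median -0.08). Without the 3 muscle-high libraries 6 of them were higher (median 0.15). Among them Cox4i2, the oxygen-sensitive form of Cox4, stood at 1.36, 1.70, 0.568, 2.11 and 1.11 RPKM with antibody and at 2.66, 1.36, 2.61, 1.78 and 3.54 RPKM with vehicle, a log2 difference of -0.64 (SE 0.27, unadjusted limma p 0.0359, adjusted p 0.739). The groups overlapped in a middle range, and with as few as 2 reads in a library the low values are imprecise. Cox4i1, the widespread form, had means of 64.6 ± 7.46 and 77.1 ± 22.4 RPKM (-0.21, adjusted limma p 0.804). Cox7a2l, which helps complexes III and IV associate, had means of 42.8 ± 3.13 and 50.4 ± 9.12 RPKM (-0.22, adjusted limma p 0.756).

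Assembly factors, citric acid cycle genes and regulators were measured beside them. Of 14 complex I assembly factors 8 were lower (median -0.04), with Ndufaf4 at 2.37 ± 0.346 and 2.81 ± 0.300 RPKM (adjusted limma p 0.741). Of 33 assembly factors of complexes II to V, 19 were lower (median -0.08), among them Coa6, a complex IV copper factor, at 4.93 ± 0.916 and 6.39 ± 1.71 RPKM (adjusted limma p 0.751). The 16 genes of the citric acid cycle list, which also holds Pdha1, Pdhb and Dlat of pyruvate dehydrogenase, split 8 to 8 (median 0.004). Of these, Mdh2, malate dehydrogenase, shared the vehicle-high pattern with 79.2 RPKM in vehicle 4 and 87.4 RPKM in vehicle 5. The 14 regulators of mitochondrial biogenesis split 7 to 7 (median 0.01), with the coactivator Ppargc1b at 3.64 ± 0.508 and 2.88 ± 0.638 RPKM (0.30, adjusted limma p 0.739). Without the 3 muscle-high libraries all 16 genes of the citric acid cycle list lay higher (median 0.14), where 49.1% of all genes lay below 0. Higher too were 9 of the 14 regulators (0.07), 6 of the 14 complex I factors (-0.01) and 17 of the 33 others (0.009), with 0 called.

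Ribosomal protein genes showed a median near that of the chain. Of 77 mitochondrial ribosome genes, 54 were lower (median -0.10), and 4 had an unadjusted limma p under 0.05, beside 6.53% of all genes. The smallest was that of Mrpl55, at 5.94 ± 0.493 and 8.35 ± 1.75 RPKM (-0.44, adjusted limma p 0.739). For Mrpl54 the groups did not overlap, the antibody libraries reaching 17.9 RPKM and the vehicle libraries starting at 18.2 RPKM (adjusted limma p 0.739), as in 1.11% of all genes. Of 105 tested cytosolic ribosome genes, a name pattern that also takes in the Rps6k kinases and pseudogenes, 86 were lower (median -0.13). Without the 3 muscle-high libraries the medians were 0.01 for the mitochondrial and -0.08 for the cytosolic ribosome genes. With all libraries, a median of this size was thus also found outside the respiratory chain.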

How the data were processed

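The 10 vein libraries, 5 per group, were grouped and numbered by their titles. The kit was TruSeq V2 with 0.5 µg of total RNA as input, per the labels' protocols, and the submitters' processing notes name mm10. Aligner, counter, strand setting and annotation: not given in the sources used here.

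The authors deposited RPKM for 43346 genes, per the file headers. Multiplied back by gene length and library total, 100% of the values came out whole within 0.001, so reads per library are known (4282872 to 34271554). Reads were used for depth, for a filter (0.513 CPM in 5 libraries and 15 reads in all, leaving 17859 genes) and for TMM factors (0.841 to 1.13), with which the RPKM were rescaled; RPKM in the text are rescaled unless said to be before scaling. The test was limma 3.58.1 (R 4.3.3), trended, on log2(RPKM + 0.5), antibody minus vehicle, two-sided, with Benjamini-Hochberg adjustment over all genes; log2 differences of low genes are understated by the added 0.5. Exact permutation tests used the 252 splits of 5 against 5 (smallest p 0.00794). A gene with an overlapping partner, as 29 of the 82 have, or with a near-identical copy may share reads with it.

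The genes and lists were chosen with earlier results of these data known. Genes are named by rule: in each complex the 4 of smallest p and those of highest and lowest level, the isoform sets, the 5 most variable, the untested, and up to 3 of each other list. Gm20538, Yjefn3, Adck2 and Itgad were added as overlapping genes. The markers Ckm, Myh6 and Ppargc1a and the genes Ndufb4, Cox5b, Atp5k and Atp5sl were added after their values were seen. Coordinates are those of the file; 52 of 82 equal GENCODE M21. Alternatives were other scalings, filters, added constants and models, libraries left out and the replicate number as a block.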

Additional observations from a re-analysis of the deposited data

Results flagged for a closer look

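In groups of 5, a library was flagged if its gap to the next was large against the group's range (Dixon's 95% value). Such a library was found in 11 of 142 groups examined. Chance gives about 1 in 20 for normally distributed, independent groups. These groups share the same 10 libraries and are not independent, so the count cannot be read against that rate. In the antibody group, antibody 5 stood at 33.7 RPKM for Cox6a2 (others 3.47 to 10.7), at 44.8% for the Cox6a2 share of its pair (others 5.93% to 16.1%), at 373 RPKM for Ckm (others 38.0 to 115) and at 28.2 RPKM for Atp5g3 (others 20.9 to 22.6). The muscle markers and the muscle form of Cox6a were thus set apart in the same library. Antibody 2 had the lowest complex IV sum, 367 RPKM (others 489 to 538). Antibody 4 was lowest in the endothelial list, at a mean of 4.62 on the log2 scale (others 4.92 to 5.02), and antibody 3 in the fibroblast list, at 8.38 (others 8.59 to 8.67).

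In the vehicle group, vehicle 4 stood at 53.3 RPKM for Ndufa4 (others 29.0 to 31.1), a gene for which vehicle 5 was not raised. Vehicle 3 stood at 1.38 RPKM for Cox6b2 (others 0.705 to 0.877). Vehicle 1 stood at 0.215 RPKM for Cox8c (others 0 to 0.0601), a gene with at most 2 reads per library, and at a mean of 0.539 for the cardiac list on the log2 scale (others 0.092 to 0.221).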

How the results depend on the processing

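No setting called a respiratory chain gene at an adjusted p of 0.05. The count of the 80 genes below 0 (70) was 22 without the 3 muscle-high libraries and 30 without those and the 2 libraries highest in brown fat markers, alternatives chosen after seeing the data; leaving out each library in turn gave 53 (without vehicle 5) to 74 (without antibody 5). The median of all the genes (-0.14) then ran from -0.23 to -0.05, that of complex I from -0.23 to -0.06, complex II from -0.19 to 0.01, complex III from -0.26 to -0.05, complex IV from -0.17 to 0.005 and complex V from -0.23 to -0.05; among the single libraries left out, complexes II and IV turned above 0 only without vehicle 5. Complex II was also at 0.0001 with library totals only, and complexes II and IV at 0.0018 and 0.011 with muscle level as a covariate. Scaling by library totals only moved the median of all genes to 0.06, with 36.3% below 0 (51.2% with TMM), and the 80 genes to 57 below 0 and a median of -0.05. Quality weights in limma-voom gave 76 below 0. Without the filter 1 gene of the whole table was called, outside the chain.

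Whether the replicate numbers pair the libraries is not known from the labels. Same-numbered deviations correlated at -0.10, 0.09, 0.35, 0.02 and 0.17, and only antibody 3 had its same-numbered vehicle library as its best match. With the replicate number as a block the count below 0 stayed at 70 and 4 genes, against 1, had an unadjusted limma p under 0.05, with 0 called; over all genes 7.01% had such a p under the block, against 6.53%.

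Over the 80 genes, 48 changed sign without the 3 muscle-high libraries, 42 without the 5, 21 with muscle level as a covariate, 16 without the 4 libraries highest in Kap, 13 with library totals only and up to 17 with 1 library left out. The values that follow cover only the genes of smallest p in each complex and the isoform genes among these (log2 differences); the cause was not tested. With library totals only, Sdhd was at 0.022 and Sdha at 0.082. Sdha was at 0.013 with TMM from protein-coding genes, 0.0020 without the filter, 0.0021 with a stricter filter and 0.0022 with limma-voom. Cox8b was at -0.36 with quality weights and at -0.25 without the 2 brown-fat-high libraries. With muscle level as a covariate, Sdhd was at 0.030, Sdha at 0.075, Cox7c at 0.011 and Cox7a1 at 0.44. Without the 4 libraries highest in Kap, Sdhb was at 0.012, Sdhd at 0.082 and Cox7a1 at 0.37. Without the 3 muscle-high libraries, Sdhb was at 0.11, Sdhd at 0.21, Sdha at 0.15, Uqcrfs1 at 0.014, Uqcr11 at 0.030, Uqcrc2 at 0.074, Uqcrh at 0.11, Cox7c at 0.035, Atp5g2 at 0.058 and Cox7a1 at 0.97. Without the 5, Sdhb was at 0.047, Sdhd at 0.050, Uqcr11 at 0.11, Uqcrh at 0.18, Cox7c at 0.028, Atp5g1 at 0.25, Atp5g2 at 0.072 and Cox7a1 at 0.037. With each library left out, Sdhd ran from -0.17 to 0.052, Sdha from -0.073 to 0.098, Cox7a1 from -0.50 to 0.36 and Cox8b from -0.15 to 0.62. In the 7 muscle-low libraries, r to the muscle markers turned from 0.70 to -0.24 for Cox6a2, from -0.45 to 0.44 for Cox8b and from -0.61 to 0.32 for Cox7a2 without antibody 1 and antibody 4. Depth limits the low genes: Cox7b2 and Cox8c could not be tested, and Cox6b2 and Cox4i2 rest on few reads.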

Other observations

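Neutrophil markers lay higher with antibody in 5 of 5 genes, with a median log2 difference of 1.33 and none called by limma. Cxcr2, a receptor for neutrophil-attracting chemokines, had means of 5.70 ± 3.66 and 1.48 ± 1.23 RPKM (SD, n = 5; unadjusted limma p 0.0128, adjusted p 0.739). The summed level of the list ranged from 52.5 to 357 RPKM with antibody and from 21.9 to 139 RPKM with vehicle. All 6 smooth muscle markers and all 6 macrophage markers lay lower (medians -0.26 and -0.11), none called. Des, among the smooth muscle markers but made in all muscle, stood at 333, 307 and 236 RPKM in antibody 5, vehicle 4 and vehicle 5 against at most 90.7 RPKM elsewhere (log2 difference -0.82), and the other 5 had a median of -0.25. Smtn, smoothelin of contractile smooth muscle, had means of 23.8 ± 2.36 and 29.1 ± 4.64 RPKM (adjusted limma p 0.739). Of 5 endothelial markers 3 lay higher and 2 lower, at 0.40 for Kdr, 0.15 for Cdh5, 0.05 for Vwf, -0.04 for Pecam1 and -0.10 for Tie1. Kdr, a receptor for vascular endothelial growth factor, had means of 17.8 ± 2.09 and 13.4 ± 2.18 RPKM (unadjusted limma p 0.0101, adjusted p 0.739). Adipocyte, kidney tubule, fibroblast and cardiac lists had medians of -0.04, -0.10, -0.21 and -0.18, and the brown adipocyte list of 0.50 with 4 of 4 tested genes higher. Their part in the respiratory chain values was not tested.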
